A study of Mus musculus with 8 samples.

Results

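The genes described here are 5 inhibitors of the cyclin-dependent kinases (Cdks), namely Cdkn2a, Cdkn2b, Cdkn2c, Cdkn2d and Cdkn1b. They were chosen by name, and their probes were found by RefSeq accession. The arrays carried 7 probes for these 5 genes, out of 55681 probes for 36799 genes and other targets. Cdkn2a and Cdkn2b each had 2 probes and the other genes had 1. All 7 probes were well above background on all 8 arrays in both channels, so all 5 genes passed the filter that left 23202 genes and other targets to be tested.

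Cdks bound to cyclins drive a cell through its division cycle, and the Ink4 proteins (p16Ink4a from Cdkn2a, p15Ink4b from Cdkn2b, p18Ink4c from Cdkn2c and p19Ink4d from Cdkn2d) bind Cdk4 and Cdk6 and keep D-type cyclins from activating them, which leaves the retinoblastoma protein free to hold back E2f transcription factors. Cdkn2a also encodes Arf, an unrelated protein read in another frame from a separate first exon, which binds Mdm2 and thereby stabilizes p53. Cdkn1b encodes p27Kip1, which inhibits cyclin E and cyclin A kinases. In many cell types the locus that holds Cdkn2a and Cdkn2b is covered by the histone mark that Polycomb repressive complex 2 (PRC2) writes, and Eed is a core subunit of PRC2.

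RNA came from the back skin epidermis of C57BL/6 mice on the day of birth, with 4 biological replicates of the genotype named Eed cKO and 4 of the control genotype. In Eed cKO mice floxed Eed alleles were deleted by a Cre recombinase under the Krt14 promoter, which is active in epidermal progenitors and passes the deletion to all cells that descend from them, Merkel cells and hair follicle cells included. The alleles and the Cre status of the control mice were not stated for the arrays in the sources used here, although the controls of a separate RT-qPCR experiment of the study were siblings without Cre. The number of pups behind a replicate was not stated either. No treatment was applied. Each sample shared a 2-color Agilent array with a commercial RNA mix, Universal Mouse Reference RNA, which was common to all 8 arrays. Cy3 labeled the samples of replicates 1 and 3, and the dyes were swapped for replicates 2 and 4, in each genotype alike. All values below are log2 ratios of sample over reference unless another scale is named, and a difference is Eed cKO minus control. A gene was called changed when the adjusted p (limma, Benjamini-Hochberg over all 23202) was below 0.05 and the change was at least 2-fold.

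The targeted gene was checked first. Eed log2 ratios were -1.74, -2.04, -1.78 and -1.66 on the 4 Eed cKO arrays and -0.18, -0.46, -0.31 and -0.43 on the control arrays, a difference of -1.46 ± 0.090 (SE, n = 4 per genotype, limma adjusted p = 2.1e-05). Whether the Eed probe lies within the deleted exons is not known. The 8 arrays were on 1 slide, the Eed cKO samples in 1 row and the controls in the other, so slide row and genotype cannot be told apart. Krt5, Krt14, Krt1, Krt10 and Lor, which mark keratinocytes, lay above the reference on average in both genotypes and their adjusted p ranged from 0.279 to 0.628. Of the 12 keratinocyte markers listed, 3 were lower in Eed cKO, namely the basal layer genes Itga6 (-0.74, adjusted p = 0.00322), Trp63 (-0.59, adjusted p = 0.00348) and Itgb4 (-0.51, adjusted p = 0.0219), and the other 9 did not pass. Among all 23202 genes and other targets, 9.94% were lower at an adjusted p below 0.05. The other Trp63 probe gave 0.042. Among the 9, the basal keratin genes Krt5, Krt14 and Krt15 had differences of 0.062, 0.10 and 0.17. Y-linked genes were high in control replicates 2 and 3 (mean log2 ratios of 1.19 and 1.02) and low on the other 6 arrays. With that mean as a covariate the differences were 3.62 for Cdkn2a, 1.43 for Cdkn2b and 0.57 for Cdkn2c, and each kept its side of the threshold.

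Cdkn2a and Cdkn2b are neighbors on chromosome 4, and between them the RefSeq annotation lists a noncoding gene, Gm12610, that was not on the array. Their start sites are shown because these are the members that were called changed and because Cdkn2a has 2 of them, the outer one for Arf and the inner one for p16Ink4a, 12427 bases apart. The Cdkn2b start lies 16413 bases from the outer Cdkn2a start. Each line gives the 250 bases before a start from RefSeq, build GRCm38.p6, minus strand, 5′ to 3′, with the dinucleotide CG in capitals.
Cdkn2a outer start, chr4:89294620-89294869: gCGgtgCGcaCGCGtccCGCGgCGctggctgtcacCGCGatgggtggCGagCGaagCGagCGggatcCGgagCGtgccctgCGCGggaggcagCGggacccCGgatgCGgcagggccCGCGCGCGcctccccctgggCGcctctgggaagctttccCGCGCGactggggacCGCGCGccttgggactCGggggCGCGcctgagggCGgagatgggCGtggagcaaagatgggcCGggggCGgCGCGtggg
Cdkn2a inner start, chr4:89282193-89282442: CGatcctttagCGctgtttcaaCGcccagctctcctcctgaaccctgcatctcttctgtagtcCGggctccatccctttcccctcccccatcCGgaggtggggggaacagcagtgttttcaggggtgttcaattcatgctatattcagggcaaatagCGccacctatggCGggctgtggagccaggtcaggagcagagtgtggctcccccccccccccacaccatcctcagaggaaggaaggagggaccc
Cdkn2b start, chr4:89311033-89311282: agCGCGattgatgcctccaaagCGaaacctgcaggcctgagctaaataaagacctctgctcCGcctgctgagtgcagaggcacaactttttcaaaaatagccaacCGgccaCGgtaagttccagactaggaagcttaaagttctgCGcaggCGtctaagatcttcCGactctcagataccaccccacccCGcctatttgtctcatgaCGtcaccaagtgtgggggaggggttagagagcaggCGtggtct

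The bases before the outer Cdkn2a start held 40 CG dinucleotides, and 1.31% of 32841 annotated starts held at least as many in the same window. The inner Cdkn2a start had 7, at or above which lay 46.3% of all starts, and the Cdkn2b start had 12, at or above which lay 33.5%. The median over all starts was 6. Of the other members, Cdkn2c had 29 and 6 at its 2 starts, Cdkn2d had 16 and Cdkn1b had 28. CG was counted along 1 strand, which gives the same number on the other. These counts describe the sequence alone, and no chromatin mark was analyzed here.

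Cdkn2a, Cdkn2b and Cdkn2c were higher in Eed cKO than in control epidermis, by 12.7-fold, 2.45-fold and 1.45-fold. Cdkn2a and Cdkn2b were called changed, whereas Cdkn2c met the threshold on p and missed the one on fold, and Cdkn2d and Cdkn1b met neither. Among all 23202 genes and other targets, 1.22% were called, 1.11% higher and 0.108% lower, and at any fold 11.8% had an adjusted p below 0.05 with a higher and 9.94% with a lower value in Eed cKO. Of the 14977 tested genes that have a symbol, Cdkn2a showed the 4th largest rise, Cdkn2b the 109th and Cdkn2c the 785th.

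**Figure D1:**
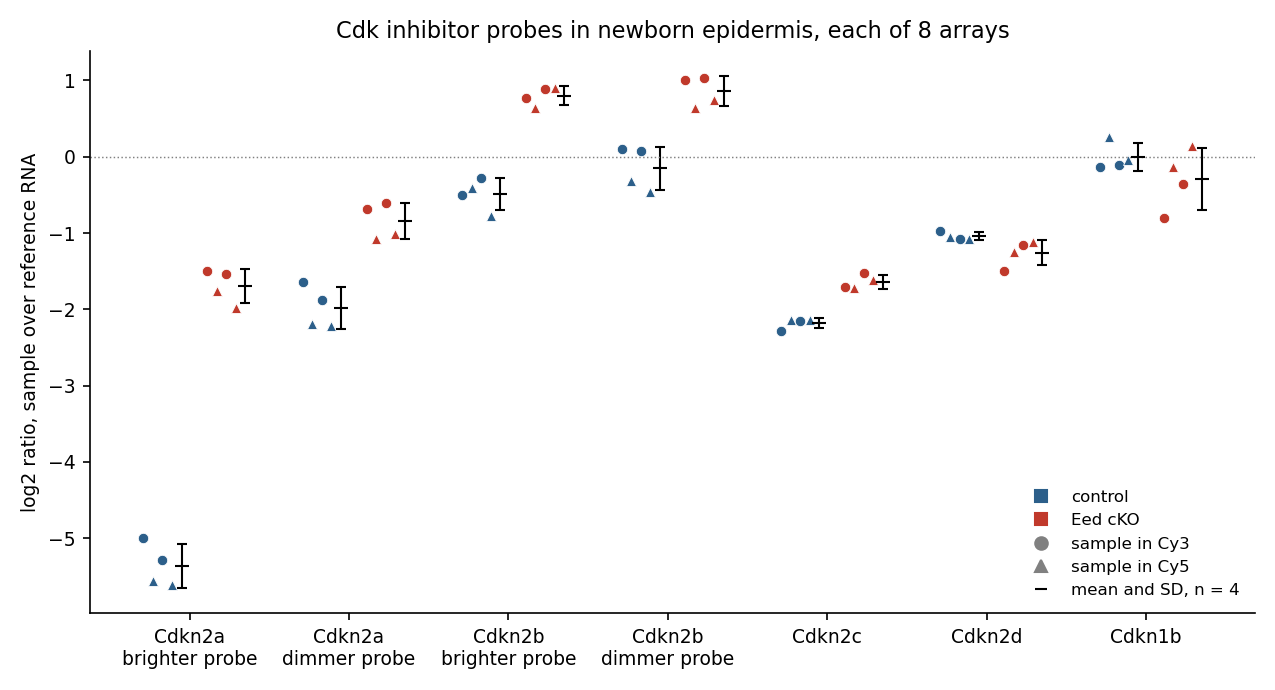
Log2 ratio of sample over reference (vertical axis) of the 7 probes (horizontal axis) on each of the 8 arrays. Blue symbols are control and red symbols Eed cKO arrays, circles have the sample in Cy3 and triangles in Cy5, and black bars give the mean and SD of 4 arrays. Both probes of Cdkn2a and of Cdkn2b and the probe of Cdkn2c separate the genotypes, and the brighter Cdkn2a probe does so by the widest gap, from -4.99 to -1.98. Cdkn2d separates them in the other direction by 0.042.

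The brighter Cdkn2a probe (A_55_P2008437) gave log2 ratios of -1.50, -1.76, -1.53 and -1.98 on the Eed cKO arrays and of -4.99, -5.57, -5.28 and -5.61 on the control arrays. The lowest Eed cKO array was 3.01 above the highest control array, and in both genotypes the arrays with the sample in Cy3 were above those with it in Cy5. The means were -1.69 ± 0.22 in Eed cKO and -5.36 ± 0.29 in control epidermis (SD, n = 4), or 30.9% and 2.43% of the reference. The difference was 3.67 ± 0.086 (SE, 95% interval 3.48 to 3.86, limma adjusted p = 7.32e-08). It was 3.62 on the 2 arrays per genotype with the sample in Cy3 and 3.72 on those with it in Cy5, and between 3.49 and 3.81 in each of the 4 pairs of arrays with the same replicate number.

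Before any correction, the spot signal of this probe in the sample channel was 78 to 135 on the control arrays and 1370 to 2504 on the Eed cKO arrays, where the local background was 20 to 25. In the reference channel it was 7713 to 9840 on the control arrays and 7042 to 9697 on the Eed cKO arrays. Signals of the Cdkn2a probe thus differed between genotypes in the sample channel, by 3.83 on the log2 scale (limma adjusted p = 1.79e-07), while the reference channel, which held the same RNA throughout, differed by 0.16 (adjusted p = 0.235). In that channel 0.491% of all genes tested had an adjusted p below 0.05, and 0 of the 7 member probes did. The control signals were close to background, and the size of the rise differed with the handling of background. It was 3.67 with an offset of 50 added to the corrected signals, 4.39 with no offset, and 4.58 on the log ratio that the Feature Extraction software computes.

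The dimmer Cdkn2a probe (A_55_P2008438) gave log2 ratios of -0.68, -1.08, -0.61 and -1.01 on the Eed cKO arrays and of -1.65, -2.20, -1.88 and -2.21 on the control arrays. The genotypes did not overlap, and the gap between them was 0.57. The difference was 1.14 ± 0.072 (SE, n = 4 per genotype, adjusted p = 2.48e-05 in a limma fit of all 30727 probes that passed the filter), where 0.95% of probes were called higher. The rise on the brighter probe exceeded that on the dimmer one by 2.53. The brighter minus the dimmer log2 ratio was -3.40 to -3.35 on the control arrays and -0.97 to -0.67 on the Eed cKO arrays (exact two-sided permutation test, p = 0.0286, the smallest that 70 splits of 4 against 4 arrays allow, adjusted p = 0.0572 over the 2 probe pairs). The arrays of the genotypes thus did not overlap in this gap, and the test missed 0.05 after adjustment, in a design that could not give a lower p for a single pair. The gap between the probes was 2.92 on the Feature Extraction log ratio, also with p = 0.0286 in the exact test. Taking the median over both probes in place of the brighter one lowered the Cdkn2a difference to 2.40.

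Both Cdkn2a probes were annotated with the same RefSeq transcript, 1 of 2 that RefSeq lists for the gene. Probe sequences were not used here, so whether a probe detects the p16Ink4a transcript, the Arf transcript or both is not known, and the values of either probe cannot be assigned to 1 of these products.

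**Figure D2:**
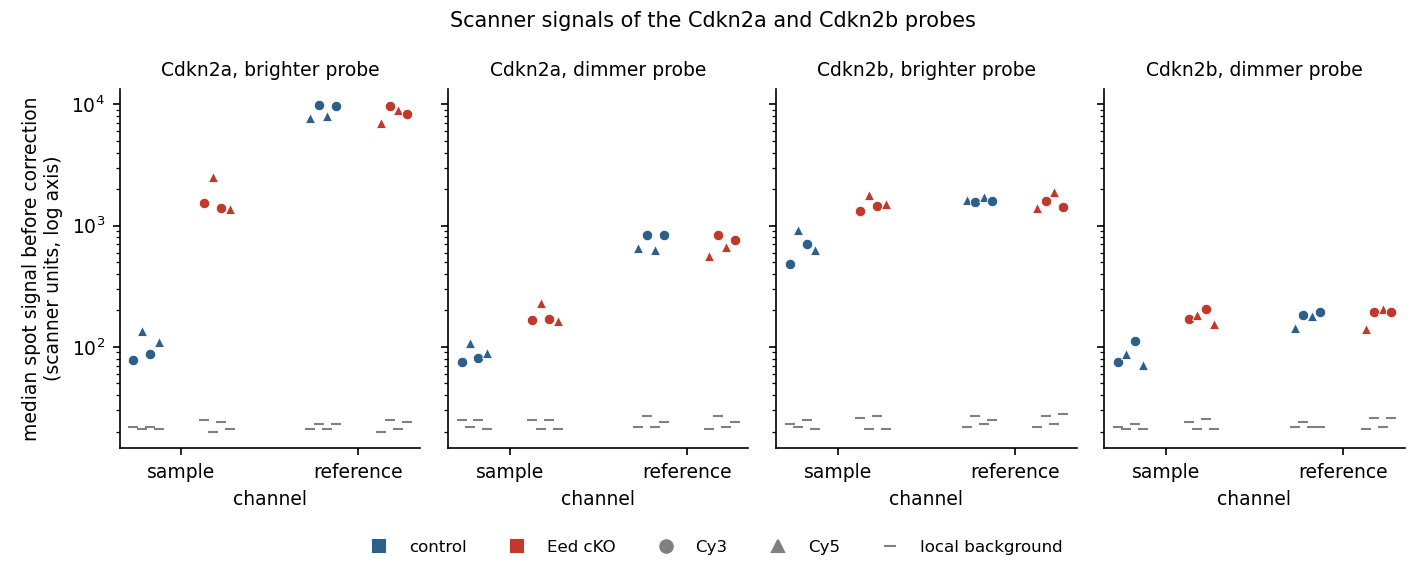
Median spot signal before correction (vertical log axis, scanner units) in the sample and reference channels for the 2 probes of Cdkn2a and the 2 of Cdkn2b. Blue symbols are control and red symbols Eed cKO arrays, circles are Cy3 and triangles Cy5, and gray bars mark the local background. The sample channel separates the genotypes for each probe while the reference channel does not, and both Cdkn2a probes lie near 100 in control samples.

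Cdkn2b encodes p15Ink4b. Its brighter probe (A_55_P1988183) gave log2 ratios of 0.78, 0.64, 0.88 and 0.91 in Eed cKO and of -0.50, -0.41, -0.28 and -0.78 in control epidermis. Every Eed cKO sample lay above the reference and every control sample below it, with a gap of 0.92 between the genotypes. The means were 0.80 ± 0.12 and -0.49 ± 0.21 (SD, n = 4), and the difference was 1.29 ± 0.11 (SE, 95% interval 1.06 to 1.53, limma adjusted p = 0.00012). It was 1.22 within the Cy3 arrays and 1.37 within the Cy5 arrays. In the sample channel alone the difference was 1.37, and in the reference channel 0.077 (limma adjusted p = 0.611).

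The dimmer Cdkn2b probe (A_55_P1979526) gave 1.01, 0.63, 1.03 and 0.75 in Eed cKO and 0.10, -0.32, 0.08 and -0.47 in control epidermis. Here too the genotypes did not overlap, and 2 of the 4 controls lay slightly above the reference. The difference was 1.01 ± 0.071 (SE, n = 4 per genotype, limma adjusted p = 4.81e-05 over all probes). The brighter probe's difference was 0.28 above the dimmer probe's (exact two-sided permutation test, p = 0.0857, adjusted p = 0.0857 over the 2 pairs), which did not pass the test. That gap was 0.00088 with no offset and turned to -0.056 on the Feature Extraction log ratio. The sign of the gap between the Cdkn2b probes thus changed with the processing, while that between the Cdkn2a probes did not.

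Cdkn2c encodes p18Ink4c. Its log2 ratios were -1.70, -1.72, -1.53 and -1.61 in Eed cKO and -2.28, -2.14, -2.15 and -2.15 in control epidermis. The genotypes did not overlap, with control replicate 1 the lowest of all arrays. The means were -1.64 ± 0.089 and -2.18 ± 0.066 (SD, n = 4), and the difference was 0.54 ± 0.074 (SE, 95% interval 0.37 to 0.71, limma adjusted p = 0.00174). Its whole interval lay under the 2-fold limit. With median centring of each array in place of loess the difference was 0.38, with an adjusted p of 0.0484.

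Cdkn2d encodes p19Ink4d. Its log2 ratios were -1.49, -1.25, -1.16 and -1.12 in Eed cKO and -0.97, -1.05, -1.08 and -1.08 in control epidermis. All 4 Eed cKO arrays were below all 4 control arrays, by a gap of only 0.042, with Eed cKO replicate 1 the lowest. The difference was -0.21 ± 0.090 (SE, 95% interval -0.42 to -0.011), which did not pass after adjustment (limma adjusted p = 0.12). Groups that did not overlap occurred with a higher value in Eed cKO for 9.68% of all genes tested, as for Cdkn2a, Cdkn2b and Cdkn2c, and with a lower value for 7.49%, as for Cdkn2d.

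Cdkn1b encodes p27Kip1. Its log2 ratios were -0.81, -0.14, -0.36 and 0.14 in Eed cKO and -0.13, 0.26, -0.10 and -0.05 in control epidermis. The genotypes overlapped, and the Eed cKO arrays were more spread (SD 0.40, n = 4) than the control arrays (SD 0.18, n = 4). The difference was -0.28 ± 0.13 (SE, 95% interval -0.57 to 0.0076, limma adjusted p = 0.149). It was -0.47 on the Cy3 arrays and -0.10 on the Cy5 arrays, and 3 of the 4 pairs of arrays with the same replicate number had the lower value in Eed cKO. Under median centring Cdkn2d and Cdkn1b did pass, at -0.37 (adjusted p = 0.0206) and -0.44 (adjusted p = 0.0309). The intervals thus leave room for a fall of up to 0.42 for Cdkn2d and 0.57 for Cdkn1b, and a missed threshold does not show that either was equal in the genotypes.

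**Figure D3:**
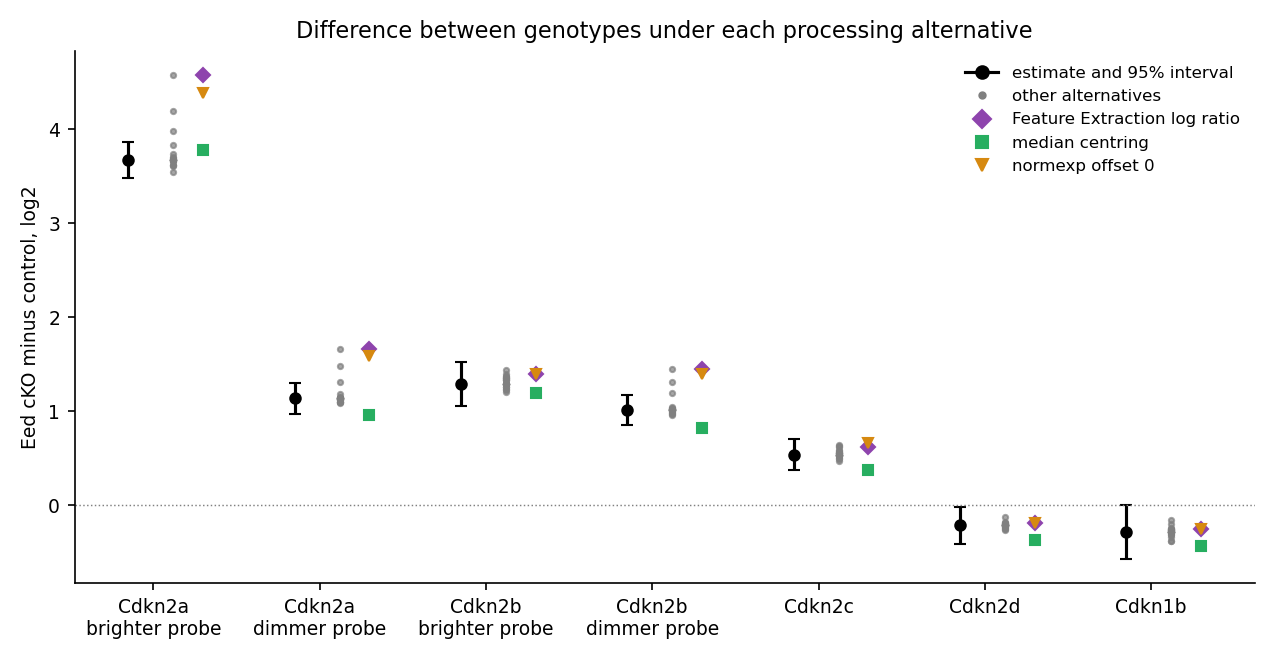
Difference between genotypes on the log2 scale (vertical axis) of each probe (horizontal axis). Black points give the estimate with its 95% interval from the fit of all probes, gray points the other processing alternatives, and colored symbols 3 named alternatives. Background handling raises the difference of the brighter Cdkn2a probe to 4.58, and no alternative turns the sign of a probe.

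The members were also compared with each other in how far they differed between genotypes, as 10 pairs of genes over the 8 arrays. The differences between pairs were each tested by an exact two-sided permutation of the arrays, and 9 of 10 gave p = 0.0286, the smallest possible (adjusted p = 0.0318). Cdkn2a exceeded Cdkn2b by 2.38, Cdkn2b exceeded Cdkn2c by 0.75, and Cdkn2c exceeded Cdkn2d by 0.75. Cdkn2d and Cdkn1b differed by 0.070 (exact permutation p = 0.686). The order of the differences was thus Cdkn2a, Cdkn2b, Cdkn2c and then Cdkn2d and Cdkn1b, the last pair of which could not be separated. Each gene stood in these pairs with its brighter probe. At the offset used here the dimmer Cdkn2a probe, at 1.14, differed less between genotypes than the brighter Cdkn2b probe, at 1.29. That order held with no background correction (1.32 against 1.34) and under median centring (0.96 against 1.20). It turned with an offset of 10 (1.48 against 1.38), with no offset (1.59 against 1.40) and on the Feature Extraction log ratio (1.66 against 1.40). Whether the dimmer Cdkn2a probe placed Cdkn2a above Cdkn2b thus depended on the handling of background.

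**Figure D4:**
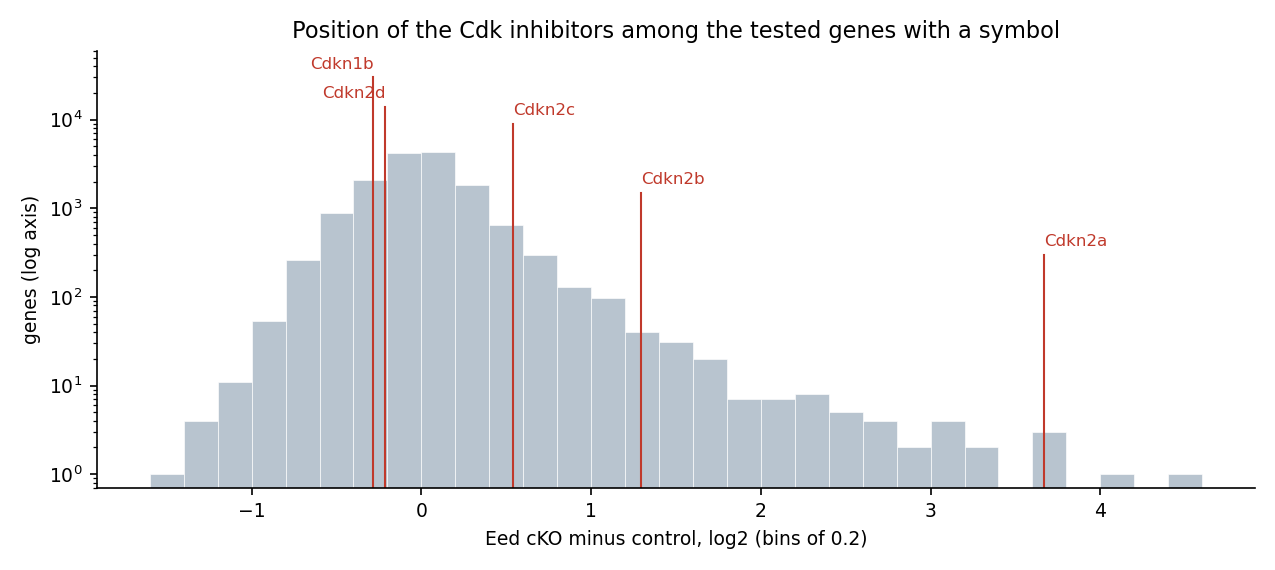
Number of genes (vertical log axis) by difference between genotypes (horizontal axis, log2, bins of 0.2) for the 14977 tested genes with a symbol. Red lines mark the 5 Cdk inhibitors, Cdkn2a and Cdkn2b by their brighter probes. Cdkn2a at 3.67 lies far in the right tail, Cdkn2b at 1.29 on its shoulder, and Cdkn2d and Cdkn1b near the center.

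In bulk epidermis, a change in the number of cells of a type cannot be told apart from a change in RNA per cell. Over all features tested, 11.8% were higher and 9.94% lower in Eed cKO at an adjusted p below 0.05, which stands beside the counts that follow. Merkel cell markers moved with Cdkn2a and Cdkn2b. All 7 tested Merkel markers of 8 listed had a higher value in Eed cKO with an adjusted p below 0.05, by a median of 0.83, and Krt20 and Cck were called. The size of these rises differed with the handling of background, with a median of 1.47 at an offset of 10 and of 1.72 on the Feature Extraction log ratio. Atoh1 and Isl1, transcription factor genes of this cell type, had differences of 0.87 and 0.83 at the offset of 50 and of 3.04 and 2.95 on the Feature Extraction log ratio. The normalized signal in the sample channel, with the offset of 50 in each probe, was summed over all 8 listed Merkel markers. It was 2372 to 2994 in Eed cKO and 1443 to 1855 in control samples. In controls Sox2 was well above background on 0 of 4 arrays and Atoh1 and Isl1 on 2 of 4. Sox2, Atoh1 and Isl1 thus entered the test only through Eed cKO, where they were higher, so the filter partly set their direction. Of 6 tested immune markers 3 were higher at an adjusted p below 0.05, with a summed signal of 4841 to 6685 in Eed cKO and 3359 to 5259 in controls, and of 3 tested endothelial markers 2 were, with 4654 to 6141 and 2793 to 4225. For adipocyte markers it was 2 of 3, with 521.8 to 694.2 and 416.3 to 535.3, and 0 of 3 under median centring or in the sample channel alone. All these sums include the added offset, which makes up a larger share of them where the probes are dim. Dermal fibroblast markers gave 1 higher and 1 lower of 8, markers of Schwann cells and neurons gave 1 lower of 4, and 0 of 4 skeletal muscle, 0 of 4 erythroid and 0 of 6 melanocyte markers passed. Of these passes, those of the adipocyte genes Lep and Fabp4 were lost on leaving out 7 and 6 of the 8 single arrays, that of the immune gene Cd74 on 6 and that of the glial gene Sox10 on 7. The part of these cells in the rise of the Cdk inhibitors was not tested.

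Other genes of the pathway were examined as lists, beside a median of 0.019 over all features tested. Of all features tested, 11.8% were higher and 9.94% lower in Eed cKO at an adjusted p below 0.05 at any fold. A count of 1 or 2 genes in a short list is thus not read as a result about that list. Among the remaining Cdk inhibitors, Cdkn1c, which encodes p57Kip2, was higher by 0.64 ± 0.099 (SE, limma adjusted p = 0.00281). Its genotypes did not overlap, a separation with the higher value in Eed cKO that 9.68% of all genes tested showed. Cdkn1a, which encodes p21 and is a target of p53, had a difference of -0.13 (adjusted p = 0.56) on its brighter probe and of 0.34 on its other probe. Of the 4 tested partners that the Ink4 proteins act on, 0 were higher and 2 were lower at an adjusted p below 0.05, with differences of -0.49 for Ccnd3 and -0.39 for Ccnd2, and the median was -0.28. The Ccnd2 pass was lost without Eed cKO replicate 4, control replicate 2 or control replicate 4. Cdk4 itself, named here after its value was seen, had a difference of -0.18 (adjusted p = 0.226), and Cdk6 did not pass the filter.

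Among 13 pocket proteins and E2f family genes, 5 were lower and 0 higher at an adjusted p below 0.05, with a median of -0.21. E2f8, a repressor within the family, fell by 0.80 ± 0.12 (SE, limma adjusted p = 0.0022). On the log2 scale E2f7 fell by 0.59 and Rb1, which encodes the retinoblastoma protein, fell by 0.55. The other E2f7 probe gave 0.030, and leaving out any array other than control replicate 3 ended the E2f7 pass. Tfdp1 lost its pass on leaving out 4 of the 8 single arrays. The number lower in this list was 3 at an offset of 10 and 4 in the sample channel alone. It was 5 on the Feature Extraction log ratio and under median centring. Of the 10 kinases, cyclins and Cdc25 phosphatases around Cdk1 and Cdk2, on which p27Kip1 acts, 2 were lower, with differences of -0.71 for Cdc25a and -0.27 for Ccna2. Of the 8 arrays, the Ccna2 pass held only when Eed cKO replicate 3 or control replicate 3 was the one left out. Of 9 tested genes of p27Kip1 turnover, 2 were lower, with differences of -0.44 for the importin gene Kpnb1 and -0.24 for the ubiquitin ligase scaffold gene Cul1. The first was lost without control replicate 2, and the second without Eed cKO replicates 2, 3 or 4 or control replicates 2 or 4. Of 16 proliferation and replication genes, 6 were lower and 0 higher, with a median of -0.24, led by the replicative helicase genes Mcm6 (-0.75) and Mcm4 (-0.66) and by Mki67 (-0.65), a marker of cycling cells. The number lower was 3 under median centring and 4 on the Feature Extraction log ratio, and Aurkb, Plk1 and Mcm3 lost their pass on leaving out 7, 6 and 4 of the 8 single arrays.

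On the Arf side, 2 of 7 genes were lower and 0 higher, namely Huwe1 (-0.56), a ubiquitin ligase that Arf inhibits, and Usp7 (-0.36), which deubiquitinates Mdm2 and p53. The Usp7 pass was lost without Eed cKO replicates 1 or 4 or control replicate 2. Mdm2, at -0.0028, and Trp53, at -0.025, named after their values were seen, had adjusted p of 0.984 and 0.877. Of 14 tested p53 target genes 4 were higher and 0 lower, with a median of 0.16. These were 2 and 0 on the Feature Extraction log ratio, 2 and 1 under median centring and 4 and 2 under quantile normalization, and Sesn2 lost its pass on leaving out any of 5 of the 8 arrays. Pmaip1, which encodes the proapoptotic protein Noxa, was called, with a difference of 1.50 ± 0.20 (SE, limma adjusted p = 0.0015).

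Among 24 genes known to regulate the locus, 3 were higher and 9 lower at an adjusted p below 0.05, with a median of -0.11. Bmi1, a Polycomb repressive complex 1 subunit that represses Cdkn2a, was called, with a difference of 1.11 ± 0.11 (SE, limma adjusted p = 0.000285), and its other probe gave 1.16. The Bmi1 rise stayed at an adjusted p below 0.05 under all 27 alternatives but fell just short of 2-fold in some, with a lowest value of 0.97. Mtap, which lies beyond Cdkn2a on the side away from Cdkn2b and encodes an enzyme of methionine salvage, was higher by 0.28 ± 0.075 (SE, limma adjusted p = 0.0257), a pass that held under 19 of 27 alternatives and was lost without Eed cKO replicates 3 or 4 or control replicate 2 and under median centring. On the far side of Cdkn2b, Dmrta1 did not pass the filter, and beyond it Zfp352, a zinc finger gene named after its value was seen, was higher by 0.67 ± 0.10 (SE, limma adjusted p = 0.00271). Of 18 listed genes that senescent cells secrete or change, 12 were tested, and 5 were higher and 2 lower, with a median of 0.25. Il6, Cxcl5, Mmp3, Mmp9, Mmp10 and Mmp13 did not pass the filter. The lower genes were Glb1 (-0.51) and Lmnb1 (-0.39). The Lmnb1 pass held under 16 of 27 alternatives and was lost on leaving out 4 of the 8 single arrays. Under median centring 3 genes of the list were higher and 1 lower. Among the 5 higher at the offset of 50 were the chemokine gene Cxcl1 (0.93) and the interleukin genes Il1b (0.72) and Il1a (0.56). The sizes and order of these rises differed with the handling of background. The Feature Extraction log ratio gave 1.37 for Cxcl1, 1.77 for Il1b and 2.22 for Il1a (adjusted p = 0.06). It gave 1.97 for the chemokine gene Cxcl2, which had 0.35 at the offset of 50 and passed the filter only through Eed cKO. Of 11 PRC2 subunit genes 5 were lower and 0 higher, and Eed, the targeted gene, was called. The number lower was 4 on the Feature Extraction log ratio and under median centring. Eed kept its pass on leaving out any single array. Aebp2, Ezh1, Rbbp7 and Suz12 lost theirs on leaving out 6, 3, 3 and 2 of the 8 single arrays. The other probes of Ezh1, Aebp2 and Rbbp7 gave -0.26, -0.14 and -0.072. For the 12 lists the sign of the median was the same under 7 other scalings and signal definitions, of which Aquantile leaves log ratios as they are and could not change it, with the lowest magnitude in the p53 targets, at 0.011 under median centring.

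**Figure D5:**
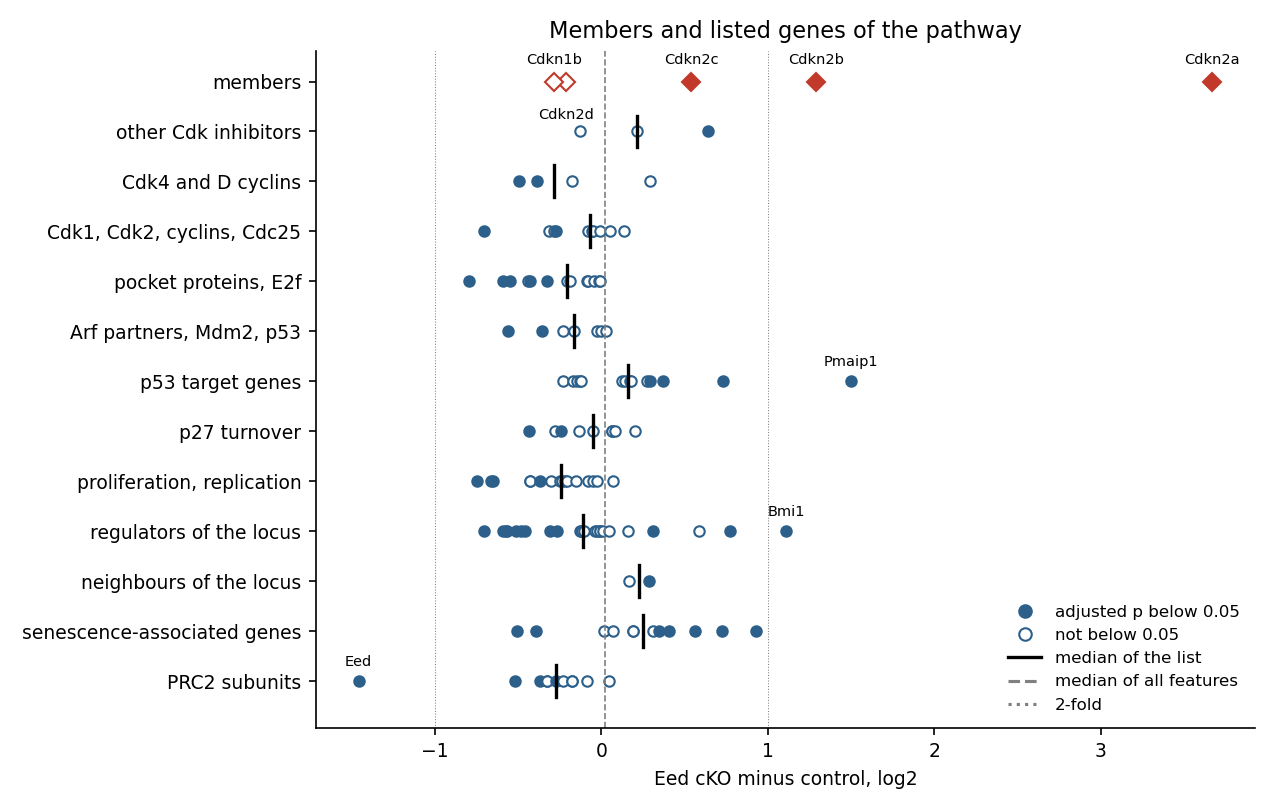
Difference between genotypes on the log2 scale (horizontal axis) of the 5 members (red diamonds) and of the tested genes of 12 pathway lists (blue circles, 1 row per list). Filled symbols have an adjusted p below 0.05, short black lines are list medians, the dashed line is the median of all features and dotted lines mark 2-fold. At the offset of 50 used here Pmaip1, Bmi1 and Eed are the listed genes beyond 2-fold, and no listed gene lies as far out as Cdkn2a at 3.67. On the Feature Extraction log ratio, not plotted, Tbx3 (1.72), Il1a, Il1b, Cxcl1 and Cxcl2 are beyond 2-fold too.

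The genes whose log2 ratios followed the brighter Cdkn2a probe most closely over the 8 arrays were Cers4, a ceramide synthase gene (Pearson r = 0.999), Hoxb13, a homeobox gene (0.998), Sp8, a zinc finger transcription factor gene (0.996), Ddx43, a helicase gene (0.996), and Cenpv, a centromere protein gene (0.995). These correlations describe 8 arrays that fall into 2 genotypes and share a slide and a reference, and a gene that separates the genotypes with little spread scores high on them. Cers4 was higher in Eed cKO by 1.71, Ddx43, well above background on 2 of 4 control arrays, by 1.17, and Cenpv by 1.56. Hoxb13 and Sp8 were well above background on 4 of 4 Eed cKO and 0 of 4 control arrays. Hoxb13, Sp8 and Ddx43 thus passed the filter only through Eed cKO, where they were higher.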

How the data were processed

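RNA of 4 Eed cKO and 4 control samples was measured on 8 arrays (100 ng of RNA per labeling), grouped by the sample labels, which call them biological replicates. The authors scanned the arrays and read the images with Agilent Feature Extraction 12.0.1.1 (version from the submitters' processing notes). They deposited, per array, unnormalized intensity values of both channels (median of the spot and of its local background). Also deposited were flags that mark bright, saturated or outlying spots, and the software's log10 ratio of red over green. A deposited table holds log2 values of the sample relative to the reference. Here, background was corrected with normexp (offset 50), which draws ratios of dim spots toward 0, arrays were normalized by loess with control spots at weight 0, dye-swapped arrays were turned to sample over reference, and outlier-flagged spots were left out. Each gene was represented by its probe with the highest mean sample signal over the 8 arrays of both genotypes, and each probe was also fitted on its own. Values of the 5 members come from the gene fit and those of the dimmer probes from the probe fit. Features entered the test if flagged as well above background for the sample on 3 or more of the 4 arrays of either genotype. The gene fit had 19 gaps, which took the mean of their group, and none was in a member.

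The genotype effect was estimated with limma 3.58.1 in R 4.3.3, with dye as a second term. Pairs of probes or genes were compared by exact permutation. Probes were named through RefSeq accessions of GRCm38.p6, which gave a symbol to 28026 of 29796 probes that carry one. Coordinates are those of RefSeq, since the array was designed on another build. The number of arrays limits the precision, and between 51.5% and 65.5% of an array's spots passed the background flag for the sample. On data simulated for 4 against 4 arrays with 23202 genes, 195 and 197 of 200 genes changed 3-fold were found in 2 simulations, with 0 false calls. That change is larger than those of Cdkn2b, Cdkn2c, Cdkn2d and Cdkn1b, which were 2.45-fold, 1.45-fold, 1.16-fold and 1.22-fold. The share found therefore does not apply to them.

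The members, the gene lists and the rule for naming genes were chosen with earlier results of these data known. The rule takes the members and Eed, then from each pathway list every called gene or else up to 3 genes with the largest change among those with an adjusted p below 0.05, and the 5 genes most correlated with Cdkn2a. Same-numbered arrays deviated together, with correlations of 0.489, 0.679, 0.327 and 0.362 across genes, and of 0.126 and 0.454 within a dye. The number, taken from the labels, also marks the slide column and the dye.

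The alternatives were no background correction, offsets of 10 and 0, the Feature Extraction ratio, the deposited table, median centring, Aquantile and quantile normalization, no or a stricter filter, no dye term, an intensity trend, array weights, a replicate block, no fold limit, the sample channel alone, the methods' t-test, the median over probes, a Y-linked covariate, and each array left out. The offset of 0, the quantile normalization and the covariate were added after seeing the data.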

Additional observations from a re-analysis of the deposited data

Results flagged for a closer look

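The Cdkn2c log2 ratio of control replicate 1, at -2.28, stood apart from the other 3 control arrays, which lay between -2.15 and -2.14. Its gap to the nearest of them was 0.937 of the range of the group, above the 95% critical value of Dixon's test for 4 samples. It was the 1 array set apart among 14 groups examined, the 7 probes in each genotype, and chance sets apart about 1 group in 20. Without this array the Cdkn2c difference was 0.50 (limma adjusted p = 0.00443), against 0.54 with it.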

How the results depend on the processing

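Cdkn2a, Cdkn2b and Cdkn2c kept their direction and side of the threshold on p under all 27 alternatives, within 2.40 to 4.58, 1.15 to 1.43 and 0.38 to 0.66 on the log2 scale. Aquantile, among these, leaves log ratios as they are and could not change them. With no fold limit Cdkn2c was called as well, which makes 3 members in place of 2. Cdkn2d and Cdkn1b kept theirs except under median centring, where they passed at -0.37 and -0.44, so that 5 members in place of 3 had an adjusted p below 0.05 at any fold. Leaving out single arrays changed no member, with ranges of 3.61 to 3.74 for Cdkn2a, 1.20 to 1.35 for Cdkn2b, 0.49 to 0.57 for Cdkn2c, -0.26 to -0.13 for Cdkn2d and -0.38 to -0.16 for Cdkn1b. With the replicate number as a block the adjusted p was 1.59e-06, 0.000527, 0.00214, 0.128 and 0.144 in that order, and the pairing changed no call. The gap between the Cdkn2a probes ranged from 2.44 to 2.92. That between the Cdkn2b probes turned to -0.056 on the Feature Extraction ratio and the deposited table, which hold nearly the same values, and passed the test in the sample channel alone, at 0.34. The cause was not tested.

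Of all genes, 283 were called, 258 higher and 25 lower. With an offset of 10 these were 501, 456 and 45, with no offset 616, 557 and 59, on the Feature Extraction ratio, and likewise on the deposited log2 values, they were 698, 592 and 106, by the methods' t-test after adjustment 177, 167 and 10, and with no fold limit 5055, 2749 and 2306. Median centring gave 156 higher and 57 lower, and quantile normalization gave 47 lower. Leaving out single arrays gave 259 to 320 called, 222 to 292 higher and 15 to 41 lower, the extremes of the last without control replicate 2 and without Eed cKO replicate 2. The size of the Cdkn2a rise is limited by its control spots, which were near background.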
